A study of Mus musculus with 6 samples.

Results

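The ionotropic and metabotropic receptors for glutamate, GABA and glycine were followed as 1 family in the ventral lumbar spinal cord. Members were the protein-coding genes of GENCODE vM21 whose symbol names a subunit of an AMPA (Gria), kainate (Grik), NMDA (Grin), delta (Grid), metabotropic glutamate (Grm), GABA-A (Gabra, Gabrb, Gabrg, Gabrd, Gabre, Gabrq), GABA-A rho (Gabrr), GABA-B (Gabbr) or glycine (Glra, Glrb) receptor. Membership went by symbol alone, and the members were chosen with earlier results of these data known. The rule gave 51 genes on 14 chromosomes, out of 22028 protein-coding genes. Transcripts of 46 were assembled, 40 of these passed the filter of a mean level of 1 FPKM and were tested, and 6 stayed below it. The remaining 5 (Grm6, Gabra6, Gabrr1, Gabrr3 and Glra4) had no assembled transcript in any library.

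Poly-adenylated RNA was sequenced from the dissected ventral part of the lumbar cord of C57BL/6 mice aged 5 weeks, 3 wild-type (WT) and 3 Gde2KO libraries. Gde2 is another name of Gdpd5, which encodes GDE2, a membrane enzyme that cleaves glycosylphosphatidylinositol anchors. The labels do not describe the allele, name no other allele or agent, give neither sex nor animal, and do not say whether animals were pooled, so p-values measure the spread between these libraries. The unit throughout is FPKM, fragments per kilobase of assembled transcript corrected for sequencing depth, averaged over the exonic bases of a gene and scaled between libraries.

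Fast excitation in the spinal cord runs through AMPA receptors, tetramers of GluA subunits, with NMDA and kainate receptors beside them, and fast inhibition runs through pentamers of GABA-A or glycine receptor subunits that pass chloride. Motor neurons and ventral interneurons are known for a strong glycinergic input, carried in the adult by receptors of the alpha1 and beta subunits. Metabotropic glutamate receptors and GABA-B receptors couple to G proteins and act more slowly on both sides of the synapse.

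A few subunits dominated each class, and no receptor gene passed the test between genotypes. In the fit over all genes, 0 of the 40 tested receptor genes passed an adjusted p of 0.05 (limma with Benjamini-Hochberg adjustment), against 0.116% of all 12890 genes tested (15 genes), and 1 receptor gene, Grm5, had an unadjusted p under 0.05, or 2.5% against 3.9% of all genes. The smallest adjusted p was 0.882. The groups did not overlap for 6 of the 40 (15%), against 10.9% of all genes. Of these, 5 were lower in Gde2KO (Grm4, Grm5, Grm7, Gabra3 and Gabbr2), where 5.79% of all genes were, and Grin3b was higher. The median log2 difference was -0.03 over the receptor genes and 0.00026 over all genes, and 24 receptor genes (60%) lay below 0 against 49.9% of all genes. The 95% interval of the fold lay between 0.8 and 1.25 for 21 of the 40.

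Facts of the libraries bear on every value below. Gdpd5 itself stood at 5.41, 6.58 and 5.99 FPKM in the WT libraries and at 1.25, 1.20 and 0.952 in Gde2KO, a fold of 0.202 (95% interval 0.162 to 0.253, limma adjusted p = 0.00526). Gde2KO replicate 3 stood apart: its robust SD of log2 differences against the other libraries ran from 0.256 to 0.291, and that of the other pairs from 0.146 to 0.194. Of the tissue's markers, 5 of 5 lumbar Hox genes and 7 of 7 motor neuron genes were above the filter. All 5 Hox genes lay lower in Gde2KO (median log2 difference -0.25), with sums of 88.7 to 105.7 FPKM in WT and 74.2 to 97.9 in Gde2KO. Among the motor neuron genes 5 lay higher and 2 lower (median 0.11), and 0 genes of either list passed an adjusted p of 0.05. Of the forebrain genes, Tbr1 and Emx1 were at 0 in every library while Neurod6 stood at 0.93 to 1.26 FPKM. Superficial dorsal horn markers summed to 280, 270.2 and 273 FPKM in the WT libraries and to 330.2, 318 and 241 in Gde2KO, with 3 of 15 at 0 (Nmu, Nmur2, Trh). Of the 9 tested, 3 lay higher and 6 lower in Gde2KO (median -0.05). Schwann cell and root markers summed to 96.01 to 285 FPKM in the WT libraries and 34.1 to 291 in Gde2KO. On the log2 scale from the WT mean, the median receptor gene stood at 0.04, -0.08 and -0.12 in Gde2KO replicates 1 to 3. The part of these marker levels in the receptor values was not tested, and fewer cells of a type cannot be told apart from less RNA per cell.

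**Figure D1:**
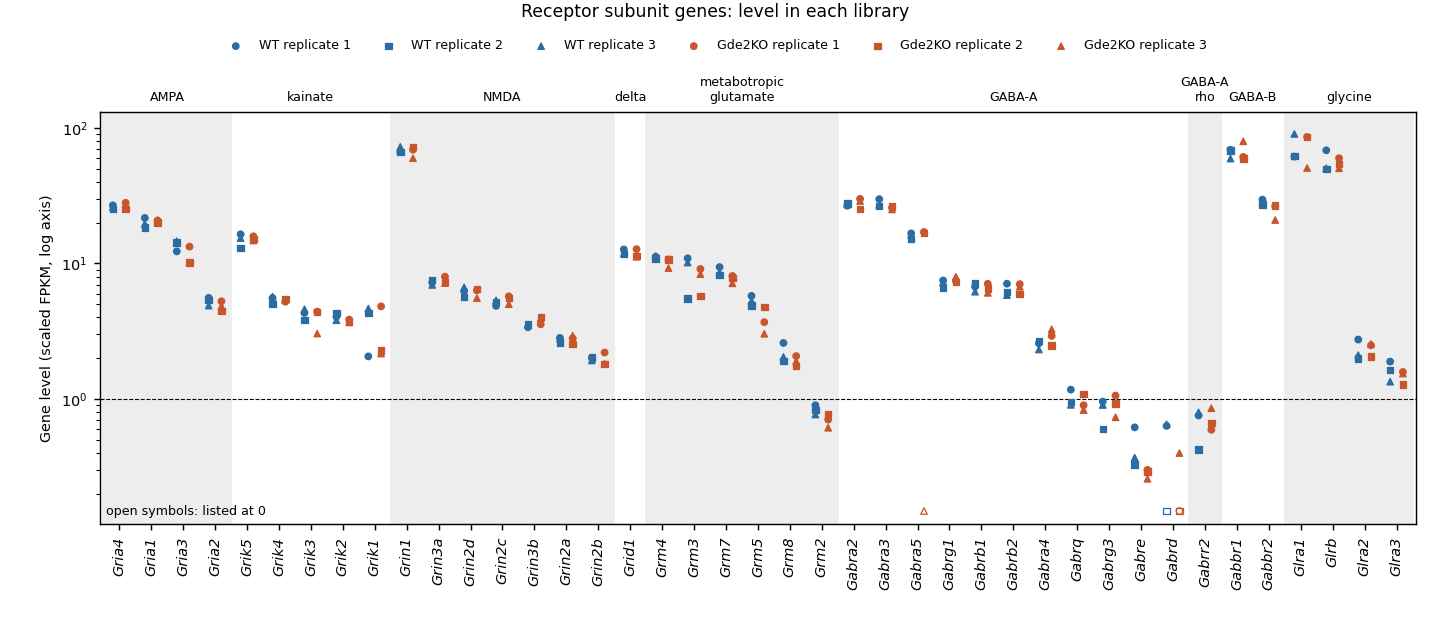
Level of 41 of the 46 assembled receptor genes in each library (scaled FPKM, log axis), grouped by class and ordered by mean within a class. Blue symbols are WT, orange symbols Gde2KO, open symbols mark a gene listed at 0, and the dashed line is the filter of 1 FPKM. Glra1, Grin1, Gabbr1 and Glrb lie above 49 FPKM in every library, and the Gde2KO values overlap the WT values for most genes.

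Across classes, 4 genes stood above the rest in every library: Glra1 at 72.5 ± 16.5 FPKM, Grin1 at 67.6 ± 4.66, Gabbr1 at 66.0 ± 7.87 and Glrb at 55.4 ± 7.29 (SD, n = 6). They encode the alpha1 subunit of the glycine receptor, the obligatory NMDA subunit GluN1, the ligand-binding GABA-B subunit and the beta subunit that anchors glycine receptors to gephyrin. The next gene, Gabra2, had 27.6 ± 1.66 FPKM, and its highest library (29.9) lay below the lowest of Glrb (49.9). The 45 neighbouring pairs in the order of levels overlapped in their ranges in 43 cases, so most ranks are not resolved, and 9 pairs kept their order in all 6 libraries.

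AMPA receptor genes. With all forms counted, Gria4, which encodes GluA4, a fast-gating subunit, was the highest, followed by Gria1, Gria3 and Gria2. Gria4 stood at 26.8, 25.3 and 26.1 FPKM in the WT libraries and at 28.0, 25.3 and 27.4 in Gde2KO, with overlapping groups and a fold of 1.03 (0.922 to 1.15, limma adjusted p = 0.897). Gria1 (GluA1) had 21.7, 18.5 and 19.6 FPKM in the WT libraries and 20.7, 20.0 and 20.8 in Gde2KO, a narrow range with no separation. Gria2 encodes GluA2, the subunit that makes AMPA receptors nearly impermeable to calcium. Its level over all 8619 counted bases was 5.07 ± 0.410 FPKM, and over its 2764 coding bases 10.9 ± 1.52 (SD, n = 6). On the coding bases the order was the same, with Gria4 at 30.3 ± 1.55, Gria1 at 20.6 ± 1.46, Gria3 at 16.9 ± 2.26 and Gria2 lowest. Over all counted bases the 4 genes together held 64.2 ± 2.68 FPKM, of which Gria4 gave 39.9% to 43.3% and Gria2 7.44% to 8.47%. The counted bases of Gria2 were assembled to 76.4% to 90.4%. Shares were not computed over coding bases, where the level of Gria2 was higher, so its share depends on the bases counted. The levels and share of Gria4 include a short form, described below. Bases that the full-length Gria4 form holds alone stood at 20.4, 19.4 and 20.2 FPKM (before scaling) in the WT libraries. In Gde2KO they stood at 20.85, 19.3 and 21.3, so on these bases Gria4 did not stand clear of Gria1.

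Gria3, which encodes GluA3, had 12.3, 14.3 and 14.6 FPKM in the WT libraries and 13.3, 10.2 and 10.2 in Gde2KO, so replicates 2 and 3 of Gde2KO were the lowest and the groups overlapped (fold 0.815, 0.647 to 1.03, limma adjusted p = 0.882). In those 2 libraries the assembled models end 2210 and 2189 bases short of the annotated 3′ end, and 60.9% and 61.4% of its counted bases were assembled, against 93.2% to 98.8% elsewhere. Over the coding bases Gria3 stood at 13.9, 18.1 and 18.5 FPKM in the WT libraries and 14.2, 18.6 and 18.4 in Gde2KO, and the difference was 0.02 on the log2 scale. As fragments per gene it had 72.1, 81.7 and 82.6 in WT and 74.6, 57.6 and 59.02 in Gde2KO, again lowest in replicates 2 and 3.

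Each of the 4 AMPA genes carries 2 mutually exclusive exons of 115 bases, called flip and flop, which encode a stretch of the ligand-binding domain and set how fast the channel desensitizes, with flip forms known to desensitize more slowly. The sequences are shown because the assembled share of the 2 forms varied between these libraries, while the gene levels overlapped between genotypes. They are read 5′ to 3′ on the coding strand from the GENCODE vM21 transcripts (mm10), and capitals mark the bases at which flip and flop of the same gene differ.
Gria1 flip (chr11:57310608-57310722, plus strand): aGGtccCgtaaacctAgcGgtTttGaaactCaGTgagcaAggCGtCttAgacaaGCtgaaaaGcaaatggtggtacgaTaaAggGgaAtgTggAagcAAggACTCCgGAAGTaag
Gria1 flop (chr11:57309769-57309883, plus strand): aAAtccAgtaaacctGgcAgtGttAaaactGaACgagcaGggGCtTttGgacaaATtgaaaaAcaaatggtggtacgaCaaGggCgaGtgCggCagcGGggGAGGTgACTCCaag
Gria2 flip (chr3:80690404-80690518, minus strand): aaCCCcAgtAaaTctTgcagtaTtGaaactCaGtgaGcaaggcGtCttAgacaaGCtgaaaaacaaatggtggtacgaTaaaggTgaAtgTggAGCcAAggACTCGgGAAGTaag
Gria2 flop (chr3:80691320-80691434, minus strand): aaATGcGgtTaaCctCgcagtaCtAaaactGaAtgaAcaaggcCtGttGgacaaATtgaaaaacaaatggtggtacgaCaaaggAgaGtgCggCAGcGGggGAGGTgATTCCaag
Gria3 flip (chrX:41669501-41669615, plus strand): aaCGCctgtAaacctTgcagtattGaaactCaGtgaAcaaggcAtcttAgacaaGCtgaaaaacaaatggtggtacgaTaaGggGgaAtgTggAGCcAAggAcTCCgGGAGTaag
Gria3 flop (chrX:41654810-41654924, plus strand): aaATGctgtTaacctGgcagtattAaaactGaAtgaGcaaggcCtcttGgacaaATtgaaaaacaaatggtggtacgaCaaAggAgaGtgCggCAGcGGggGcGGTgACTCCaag
Gria4 flip (chr9:4427030-4427144, minus strand): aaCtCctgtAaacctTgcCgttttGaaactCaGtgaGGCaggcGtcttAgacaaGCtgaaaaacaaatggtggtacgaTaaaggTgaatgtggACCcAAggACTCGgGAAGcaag
Gria4 flop (chr9:4432773-4432887, minus strand): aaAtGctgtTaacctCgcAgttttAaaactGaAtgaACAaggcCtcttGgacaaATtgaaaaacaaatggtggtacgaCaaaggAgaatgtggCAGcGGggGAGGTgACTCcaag

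Within a gene, flip and flop differed at 36 bases in Gria1 and Gria2, 32 in Gria3 and 31 in Gria4. Between genes the same exon was closer, with 9 to 14 differing bases among the flip exons and 6 to 14 among the flop exons. The pair of exons is thus more alike across paralogs than within a gene, and reads over them can be told apart within a gene at these positions.

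The share of flip was the summed FPKM over the flip exon as a percent of flip plus flop. Gria3 flip held 0%, 2.93% and 33.1% in WT and 59.9%, 54.8% and 83.4% in Gde2KO, so all 3 Gde2KO libraries lay above all 3 WT libraries, by 54.0 points on the means. The level of the flop exon was 12.1, 11.3 and 11.9 FPKM in the WT libraries and 5.41, 7.86 and 3.17 in Gde2KO. That of the flip exon was 0, 0.341 and 5.91 in WT and 8.07, 9.55 and 15.95 in Gde2KO. Flop was higher and flip lower in every WT library than in any Gde2KO library. These levels rest on differing models. Only Gde2KO replicate 3 held Gria3 transcripts with all splice junctions of an annotated one, with up to 17 exons. In every other library the Gria3 model with most exons had 8 or 9, so the shares there come from partial models. The exact permutation test gave p = 0.1, the smallest that 3 libraries against 3 allow, and 0.4 after adjustment over 12 shares. A share of 0 means that no transcript with flip was assembled in that library, which is not the absence of the exon. In WT replicate 2 the transcript over flip ends within the exon. Counting transcripts spliced into the exon instead, an alternative added after the data were seen, gave 0%, 33.2% and 33.1% in WT and left the Gde2KO values as they were (exact p = 0.1).

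For Gria1, flip held 50.5%, 54.8% and 47.3% in WT and 56.7%, 58.2% and 60.5% in Gde2KO, again with no overlap, and the means differed by 7.61 points (exact permutation p = 0.1, adjusted 0.4). With the largest transcript over each exon in place of the sum, the difference was 2.61 points (exact permutation p = 0.7). Gria2 flip ran from 29.9% to 52.7% with no order by genotype (39.3% ± 11.9 in WT, 39.8% ± 4.21 in Gde2KO libraries, SD, n = 3 each, exact permutation p = 1). Gria4 flip was 67.9%, 66.7% and 61.4% in WT and 61.8%, 33.0% and 63.9% in Gde2KO, where replicate 2 alone was low (exact permutation p = 0.3). So flip and flop were assembled for all 4 genes, and the groups separated for Gria1 and Gria3 only among the AMPA genes. In all, 3 of the 12 alternative forms measured did not overlap between genotypes (25%), and none can reach 0.05 in this design. Forms of other genes were not measured, so this percent has no background over all genes beside it. Any full separation of 3 libraries from 3 has an exact permutation p of 0.1.

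A short annotated Gria4 transcript that ends before the flip and flop exons was also assembled in every library. This form was singled out after the transcripts had been seen. Its share of the 2 forms was taken over bases that each holds alone, only 35 for the short form. This share was 49.0%, 45.9% and 53.9% in WT and 46.7%, 38.6% and 27.7% in Gde2KO. Gde2KO replicate 1 lay within the WT range and the other 2 below it (exact permutation p = 0.2).

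**Figure D2:**
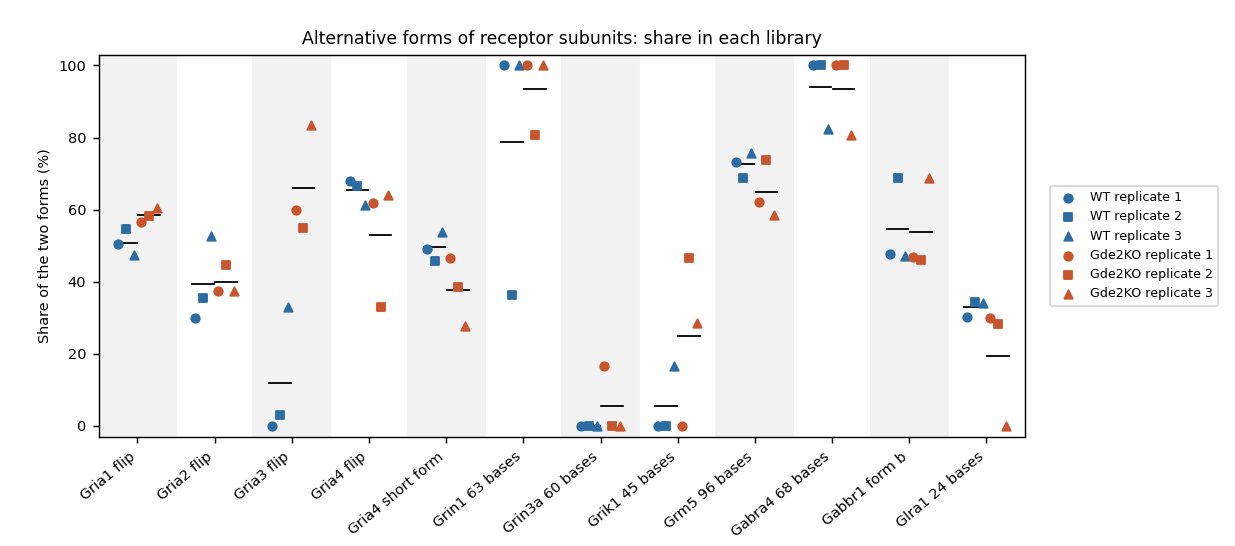
Share of each alternative form (percent of the 2 forms compared) in each library, blue for WT and orange for Gde2KO, with black bars at the group means. Gria1 flip and Gria3 flip lie higher in all 3 Gde2KO libraries than in the WT libraries, the Glra1 insert lies lower, and the other 9 forms overlap between genotypes.

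Kainate and delta receptor genes. Grik5, which encodes GluK5, a high-affinity partner that does not form channels alone, was the main kainate gene and gave 42.7% to 50.9% of the class. It stood at 16.4, 13.04 and 15.4 FPKM in the WT libraries and 15.9, 15.1 and 14.8 in Gde2KO, with the Gde2KO values inside the WT range (fold 1.02, 0.865 to 1.21, limma adjusted p = 0.949). Grik4, the related GluK4 gene, had 5.39 ± 0.241 FPKM, and the channel-forming Grik3 and Grik2 had 4.10 ± 0.578 and 3.91 ± 0.239 (SD, n = 6). Thus the high-affinity pair exceeded the channel-forming subunits in level per length. Grik1 (GluK1) fell into 2 levels that crossed the genotypes, with 2.07, 4.31 and 4.66 FPKM in the WT libraries and 4.83, 2.28 and 2.17 in Gde2KO. The fold of 0.838 has an interval of 0.393 to 1.78.

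A 45-base exon of Grik1 was assembled in 3 libraries, at 16.6% in WT replicate 3 and at 46.7% and 28.5% in Gde2KO replicates 2 and 3, and was at 0 in the others (exact permutation p = 0.4). Grid1, a delta gene whose product binds cerebellins and links synapses, stood at 12.7, 11.8 and 11.9 FPKM in the WT libraries and 12.8, 11.4 and 11.2 in Gde2KO. The groups overlapped (fold 0.973, 0.857 to 1.11, limma adjusted p = 0.919).

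NMDA receptor genes. Grin1 alone gave 69.3% to 72.6% of the class. It had 66.1, 66.5 and 72.3 FPKM in the WT libraries and 69.0, 71.9 and 59.7 in Gde2KO, with overlap and a fold of 0.977 (0.833 to 1.14, limma adjusted p = 0.945). Over coding bases the values were 67.4, 67.2 and 66.1 in WT and 63.6, 64.5 and 54.8 in Gde2KO, which did not overlap, at -0.14 on the log2 scale, a description without a test. Among the GluN2 genes, whose products bind glutamate and set the kinetics, Grin2d was highest at 6.16 ± 0.452 FPKM. Grin2c followed at 5.29 ± 0.325, Grin2a at 2.76 ± 0.144 and Grin2b at 1.97 ± 0.149 (SD, n = 6). Grin1 exceeded Grin2d by 10.6 to 11.8 times over all counted bases.

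Of the glycine-binding GluN3 genes, which lower calcium permeability, Grin3a had 7.37 ± 0.360 FPKM and Grin3b 3.67 ± 0.263 (SD, n = 6). Grin3b, a gene known for expression in motor neurons, was the only tested receptor gene higher without overlap, and was named after its values were seen: 3.39, 3.55 and 3.53 FPKM in the WT libraries against 3.56, 4.05 and 3.95 in Gde2KO. The fold of 1.10 has an interval of 0.967 to 1.25 (limma adjusted p = 0.882), and the gap between the groups was smaller than the spread within Gde2KO. The groups did not overlap over coding bases either, at 0.13 on the log2 scale, a description without a test. All 4 GluN2 genes had folds between 0.974 and 1.06.

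Grin1 has an N-terminal cassette of 63 bases, which changes proton and zinc sensitivity, and a C-terminal cassette of 111 bases, which carries signals for trafficking. They are shown because the files held the first and not the second. Capitals mark the exon, lower case the 12 bases on either side in the spliced transcript (mm10, minus strand, coordinates of the exon).
Grin1 63-base exon (chr2:25311343-25311405): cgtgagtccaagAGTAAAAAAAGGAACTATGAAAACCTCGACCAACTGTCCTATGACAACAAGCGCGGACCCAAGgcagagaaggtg
Grin1 111-base exon (chr2:25294438-25294548): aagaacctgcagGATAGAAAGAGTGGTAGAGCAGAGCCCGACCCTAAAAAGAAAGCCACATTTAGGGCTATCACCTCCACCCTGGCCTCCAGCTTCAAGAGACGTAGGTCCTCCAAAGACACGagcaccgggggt

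The 63-base exon held 100% in 4 libraries, 36.2% in WT replicate 2 and 80.7% in Gde2KO replicate 2 (exact permutation p = 1). The 111-base exon lay in no assembled transcript, while the form without it had a mean of 59.6 FPKM. A form that no library's assembly reported may still have been present below what the assembler resolves. A 60-base exon of Grin3a appeared in Gde2KO replicate 1 only, at 16.5%.

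Metabotropic glutamate receptor genes. All 6 tested genes of this class lay below 0 on the log2 scale (median -0.17, range -0.48 to -0.07), and none passed the test. On bases assembled in all 6 libraries, and without WT replicate 1 or Gde2KO replicate 2, 5 of 6 did, and with plain sums 5 of 7. Under the alternatives of scaling (no scaling, quantile normalization) all 6 stayed below 0, with medians of -0.20 and -0.15. Over coding bases, 7 of 7 assembled genes lay below 0, with a median of -0.15. Summed, the class stood at 47.6, 38.9 and 44.6 FPKM in the WT libraries and 41.1, 37.7 and 36.3 in Gde2KO, where replicate 1 lay within the WT range.

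Grm5 encodes mGlu5, a group I receptor that couples to phospholipase C, and had the smallest unadjusted p of the family. It stood at 5.77, 4.90 and 5.30 FPKM in the WT libraries and at 3.70, 4.78 and 3.04 in Gde2KO. The groups did not overlap, with replicates 1 and 3 of Gde2KO lowest, and the fold was 0.715 (0.532 to 0.961, limma adjusted p = 0.882). In those 2 libraries 68.6% and 46% of the counted bases were assembled, against 96% to 99.9% elsewhere. On the bases assembled in all 6 libraries the log2 difference was 0.05 (limma adjusted p = 0.959). Over coding bases, with 78.3% and 78.2% covered in those libraries, Grm5 had 6.85, 5.82 and 6.38 FPKM in the WT libraries and 5.16, 5.62 and 5.69 in Gde2KO, or -0.20 on the log2 scale. As fragments per gene its values were 48.3, 39.7 and 42.9 in WT and 29.1, 37.9 and 24.2 in Gde2KO.

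A 96-base exon separates the long from the short C-terminal form of mGlu5 and is shown here (mm10, plus strand, capitals for the exon) since both forms were assembled in all 6 libraries.
Grm5 96-base exon (chr7:88116193-88116288): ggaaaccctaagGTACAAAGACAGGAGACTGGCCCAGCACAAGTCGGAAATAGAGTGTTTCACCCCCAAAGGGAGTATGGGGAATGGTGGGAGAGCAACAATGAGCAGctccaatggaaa

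It held 73.3%, 68.8% and 75.6% in WT and 62.1%, 73.8% and 58.4% in Gde2KO. Replicates 1 and 3 of Gde2KO were lowest here too, and replicate 2 lay within WT (64.8% ± 8.03 against 72.6% ± 3.47, SD, n = 3 each, exact permutation p = 0.3).

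Grm4, a group III receptor of nerve terminals that lowers cyclic AMP, was the highest of the class. It had 11.2, 10.9 and 11.3 FPKM in the WT libraries and 10.7, 10.7 and 9.25 in Gde2KO, lower without overlap at a fold of 0.915 (0.802 to 1.04, limma adjusted p = 0.882). Over coding bases the groups overlapped, and with plain sums of transcripts its log2 difference was 0.14. Grm7, another group III receptor, is named for its lack of overlap, after its values were seen. It had 9.41, 8.19 and 8.58 FPKM in the WT libraries and 8.09, 7.83 and 7.15 in Gde2KO (fold 0.883, 0.766 to 1.02, limma adjusted p = 0.882). The distance between the lowest WT and the highest Gde2KO library was small beside the spread within either group. Coding bases gave no overlap for Grm7 either, at -0.15 on the log2 scale, without a test.

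Grm3, a group II receptor found in astrocytes and neurons, had its lowest levels in replicate 2 of both groups, with 10.9, 5.54 and 10.2 FPKM in the WT libraries and 9.11, 5.76 and 8.35 in Gde2KO. These 2 libraries held the longest assembled models (7573 and 7669 bases against 3460 to 4460) and the only transcripts on the opposite strand over its 3′ end, at 2.24 and 2.41 FPKM. As fragments per gene Grm3 had 45.3, 42.4 and 40.7 in WT and 40, 43.6 and 31.2 in Gde2KO, where these 2 libraries were not low. Grm8, a group III gene, had 2.05 ± 0.292 FPKM and Grm2, of group II, 0.768 ± 0.0987 (SD, n = 6). Grm2 stayed below the filter, and Grm6, known from retinal bipolar cells, was not assembled.

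**Figure D3:**
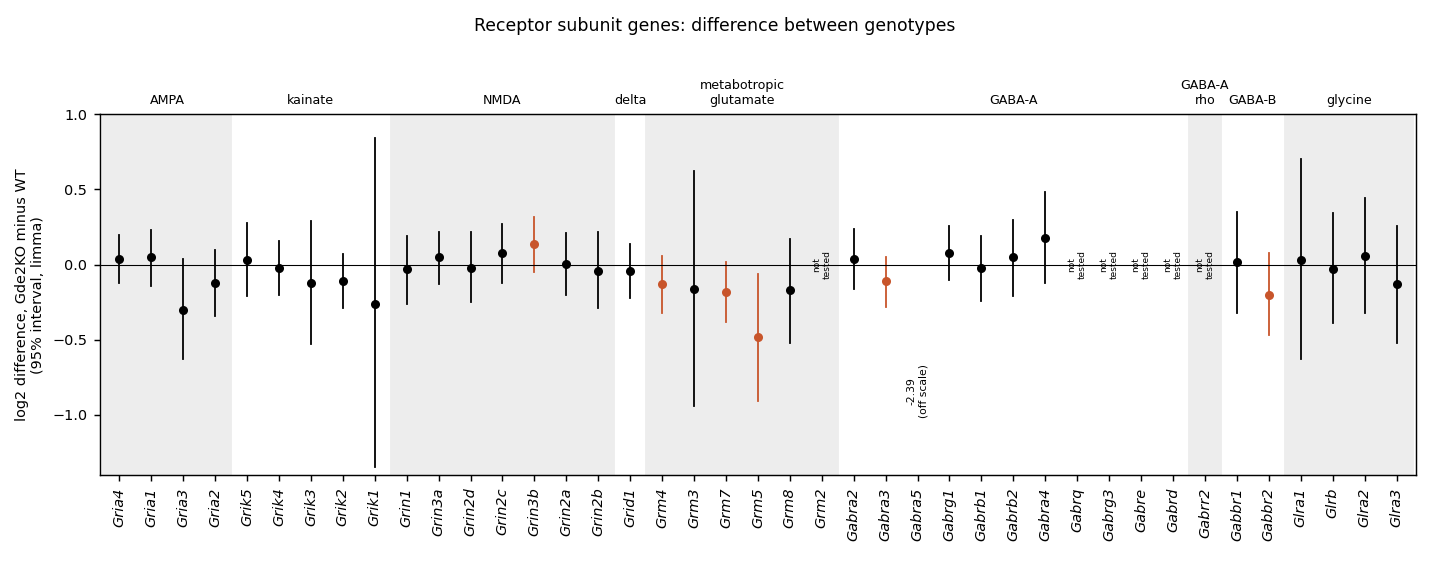
Difference of each receptor gene between genotypes (log2, Gde2KO minus WT, points) with its 95% interval from limma (lines), for 35 of the 40 tested genes. Orange marks the 6 genes whose groups do not overlap, Gabra5 lies off the scale at -2.39 because 1 library is listed at 0, and all intervals but those of Grm5 reach 0.

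GABA-A receptor genes. The alpha subunit decides which drugs and which synapses a receptor serves, and beta completes the GABA site. Gabra2 was the highest with 26.7, 27.6 and 27.3 FPKM in the WT libraries and 29.9, 25.2 and 28.9 in Gde2KO, overlapping at a fold of 1.03 (0.895 to 1.18, limma adjusted p = 0.926). Gabra3 was next at 29.8, 26.5 and 27.1 in WT and 25.8, 26.2 and 25.03 in Gde2KO. It was lower without overlap (fold 0.925, 0.825 to 1.04, limma adjusted p = 0.882), was named after its values were seen, and its groups did overlap over coding bases. Gabra4, another alpha gene, stood at 2.71 ± 0.340 FPKM (SD, n = 6).

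Gabra5, which encodes an alpha subunit of mostly extrasynaptic receptors, stood at 16.7, 15.2 and 16.4 FPKM in the WT libraries and at 17.1, 16.8 and 0 in Gde2KO. The 5 libraries with a model lay within 15.2 to 17.1, and Gde2KO replicate 3 held no transcript of the gene, so the log2 difference fitted over all 6 depends on the pseudocount, at -2.39 with 0.1 and -1.32 with 1. Without that library the log2 difference was 0.08 ± 0.06 (SE, limma adjusted p = 0.991).

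Other tested genes were Gabrg1 at 7.35 ± 0.422 FPKM, Gabrb1 at 6.63 ± 0.433 and Gabrb2 at 6.48 ± 0.552 (SD, n = 6), with folds between 0.983 and 1.06. Low genes were Gabrq at 0.978 ± 0.129, Gabrg3 at 0.866 ± 0.167, Gabre at 0.363 ± 0.132 and Gabrd at 0.282 ± 0.321 FPKM, all under the filter. Gabrd, the extrasynaptic delta subunit, was at 0 in 3 libraries and at most 0.654 in the others. Gabra6, known from cerebellar granule cells, was not assembled. For Gabra4, a 68-base exon held 80.7% to 100% with no order by genotype (exact permutation p = 1).

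Many GABA-A genes lie in clusters, and neighbours differed widely in level. On chromosome 5, Gabrg1, Gabra2, Gabra4 and Gabrb1 lie in this order between 70751047 and 72149037 with means of 7.35, 27.6, 2.71 and 6.63 FPKM. The X-linked Gabre, Gabra3 and Gabrq, between 72255999 and 72842602, had 0.363, 26.7 and 0.978. The highest gene of both clusters was an alpha subunit. The rho genes, which form receptors without other subunits and are known from the retina, were represented by Gabrr2 alone. It had 0.759, 0.426 and 0.801 FPKM in the WT libraries and 0.595, 0.670 and 0.859 in Gde2KO, overlapping and below the filter.

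**Figure D4:**
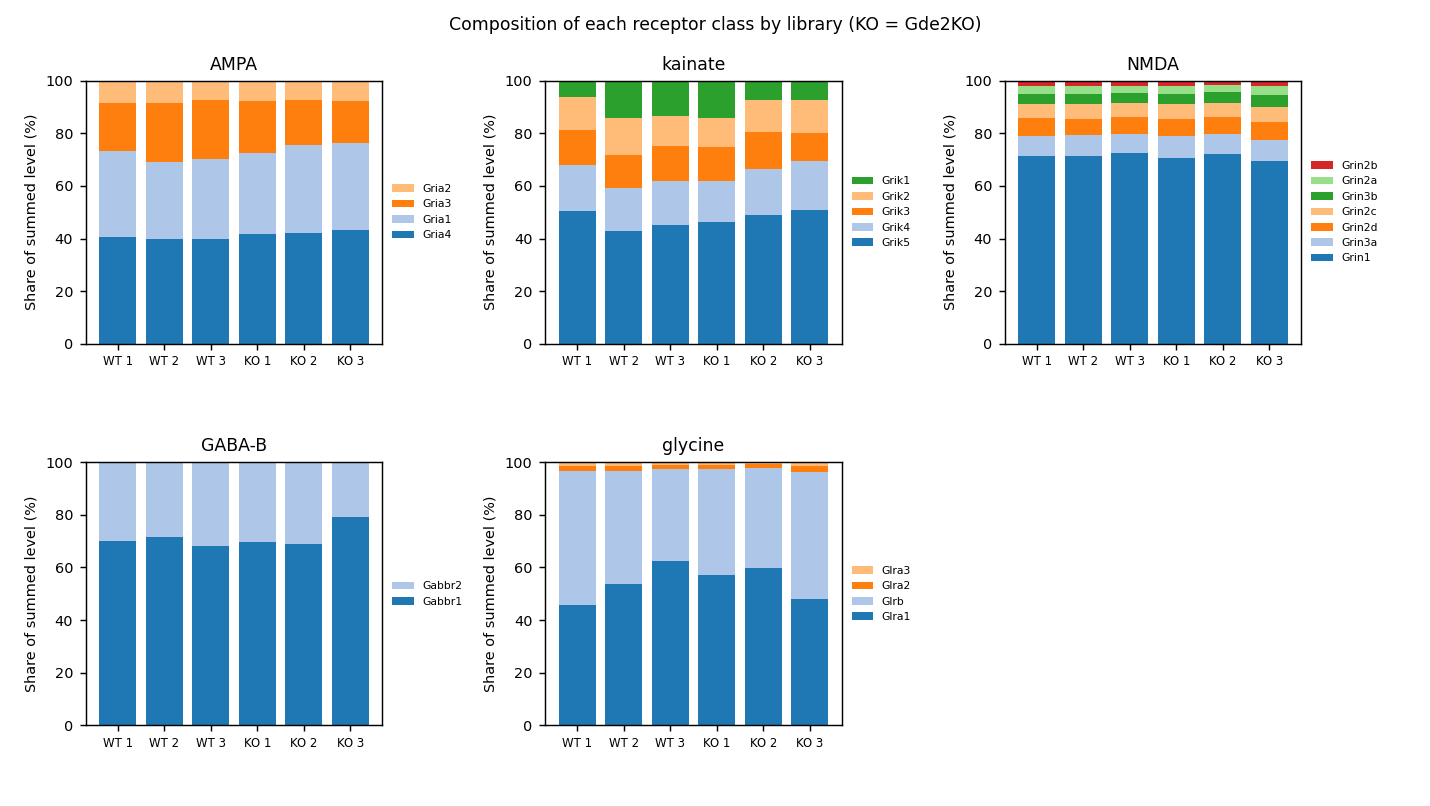
Share of each gene in the summed level of its class (percent of FPKM per length, over all counted bases) in each library, for 5 classes. Grin1 takes 69.3% to 72.6% of the NMDA class in every library, whereas the shares of Grik1 and Glra1 vary between libraries of the same genotype.

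GABA-B receptor genes. Gabbr1, whose product binds GABA, stood at 68.8, 68.1 and 59.3 FPKM in the WT libraries and at 61.0, 59.3 and 79.5 in Gde2KO, overlapping at a fold of 1.01 (0.8 to 1.28, limma adjusted p = 0.988). Gabbr2, whose product couples to the G protein and carries the pair to the surface, had 29.6, 27.1 and 27.9 FPKM in the WT libraries and 26.5, 26.8 and 20.9 in Gde2KO. It was lower without overlap, was named after its values were seen, and had a fold of 0.874 (0.720 to 1.06, limma adjusted p = 0.882). The Gabbr2 groups did not overlap over coding bases either, at -0.19 on the log2 scale, without a test. Gabbr1 exceeded Gabbr2 by 2.13 to 2.51 times in 5 libraries and by 3.80 times in Gde2KO replicate 3, where Gabbr1 was highest and Gabbr2 lowest. In that library the Gabbr1 models ended 872 bases short of the annotated end, and in the other 5 they ran 2120 to 3100 bases past it. As fragments per gene Gabbr1 was lowest in Gde2KO replicate 3, at 484 against 543 to 580 in the others. The b form of Gabbr1, which lacks the sushi domains that target the a form to axons, was chosen for measurement after the transcripts had been seen. It held 47.8%, 68.9% and 47.1% in WT and 46.9%, 46.0% and 68.8% in Gde2KO (exact permutation p = 0.5).

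Glycine receptor genes. Glra1 and Glrb made up nearly the whole class, at 45.7% to 62.6% and 35.0% to 50.8% of its level. Glra1 had 61.4, 62.1 and 90.2 FPKM in the WT libraries and 85.5, 85.4 and 50.6 in Gde2KO, so 3 libraries were high and 3 low with genotypes mixed (fold 1.02, 0.647 to 1.62, limma adjusted p = 0.985). The 3 low libraries, WT replicates 1 and 2 and Gde2KO replicate 3, each held an unspliced transcript on the opposite strand over the Glra1 3′ end, at 28.6, 35.3 and 52.2 FPKM, over 9295 to 9394 bases. No such transcript was assembled in the 3 high libraries. Whether this sets the Glra1 level was not tested. In all 6 libraries the Glra1 model ran 9215 to 9256 bases past the annotated 3′ end.

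Glrb had 68.2, 49.9 and 50.4 FPKM in the WT libraries and 59.6, 54.1 and 50.3 in Gde2KO, overlapping (fold 0.982, 0.764 to 1.26, limma adjusted p = 0.980). Over coding bases it had 70.0, 49.9 and 50.4 in WT and 88.6, 82.8 and 50.3 in Gde2KO, also overlapping, at 0.36 on the log2 scale. As fragments per gene it had 280, 248 and 248 in WT and 233, 215 and 266 in Gde2KO, where replicates 1 and 2 were the lowest. The ratio of Glra1 to Glrb over all counted bases ran from 0.899 to 1.79. Glra2, the fetal alpha subunit, had 2.33 ± 0.312 FPKM and Glra3, an alpha subunit known from dorsal horn pain pathways, 1.55 ± 0.219 (SD, n = 6), so Glra1 exceeded Glra2 by 19.8 to 42.6 times. The groups overlapped for both.

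The Glra1 insert is a 24-base exon extension in the region of the large intracellular loop (mm10, minus strand, capitals for the insert).
Glra1 24-base insert (chr11:55515104-55515127): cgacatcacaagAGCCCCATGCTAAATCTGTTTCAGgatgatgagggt

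Its share was 30.4%, 34.5% and 34.1% in WT and 29.9%, 28.2% and 0% in Gde2KO. All 3 Gde2KO libraries lay below all 3 WT libraries, by 13.6 points on the means (exact permutation p = 0.1, adjusted 0.4). Gde2KO replicate 3 held 1 Glra1 transcript, without the insert, where the other libraries held 2. Without it the means differed by 3.95 points.

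**Figure D5:**
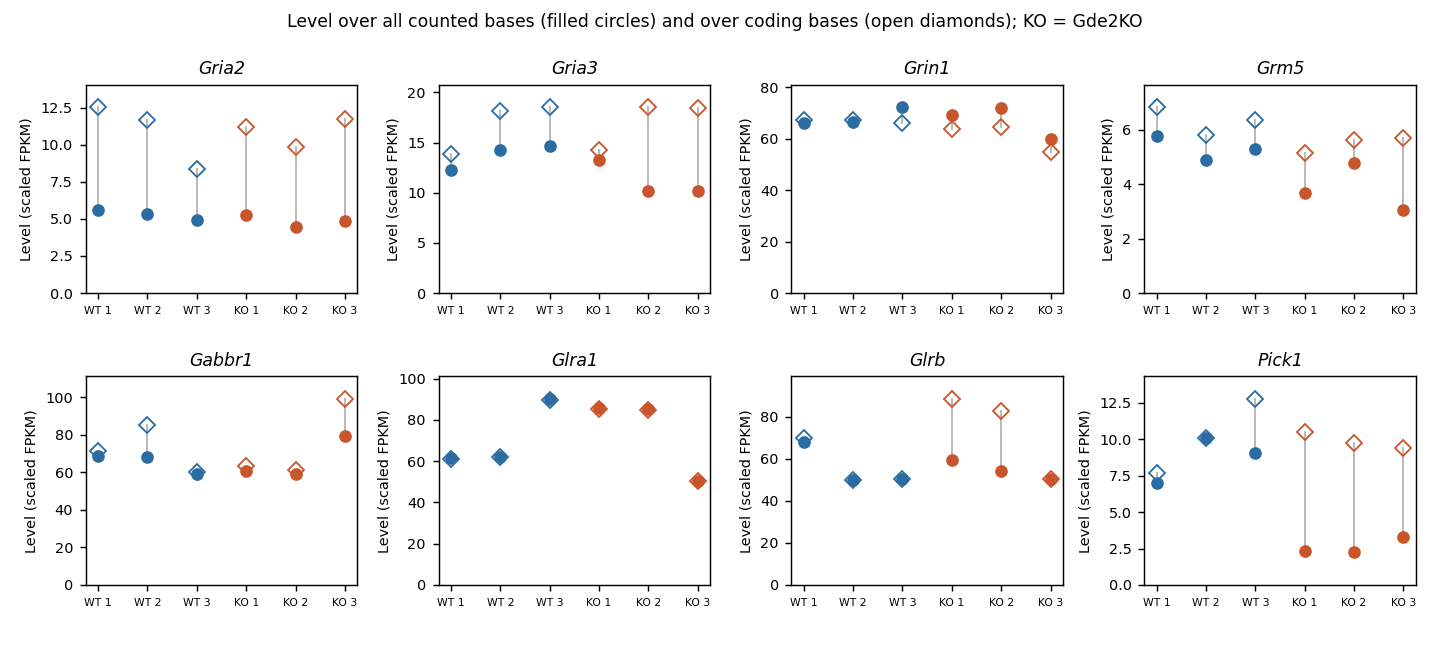
Level by library over all counted bases (filled circles) and over coding bases (open diamonds) in scaled FPKM, for 7 receptor genes and the scaffold gene Pick1, blue for WT and orange for Gde2KO. Coding bases of Pick1 are not all among its counted bases. Gria3 (in Gde2KO replicates 2 and 3) and Pick1 are lower in Gde2KO over all counted bases while their coding levels overlap WT, Grm5 is lower on both measures and by less over coding bases, and Gabbr1 in WT replicate 2 and Gde2KO replicate 3 and Glrb in Gde2KO replicates 1 and 2 are higher over coding bases.

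Partners of the receptors. Of 78 genes for auxiliary subunits, scaffolds, transmitter synthesis and transport and chloride transport, 72 were tested, 25 lay above 0 and 47 below (median -0.05), and 0 passed an adjusted p of 0.05, against 0.116% of all genes tested. Of all genes tested, 49.9% lay below 0. An unadjusted p under 0.05 was found for 5 of the 72, against 3.9% of all genes. The list of AMPA auxiliary subunits, which include the transmembrane regulatory proteins, had 12 of 13 tested genes below 0 (median -0.15), all 13 without scaling, and 8 of 13 without Gde2KO replicate 3. Among the 12, Cnih2 was at 0 in WT replicate 3 and Gde2KO replicate 2 (fold 0.899, 0.00577 to 140). Cacng2 stood at 5.34 FPKM in Gde2KO replicate 1 and at 21.9 to 24.3 in the others. The smallest p of this list belonged to Cacng8, a transmembrane AMPA regulator, at 5.71, 5.12 and 3.87 FPKM in the WT libraries and 3.91, 3.12 and 3.40 in Gde2KO (fold 0.722, limma adjusted p = 0.882). The groups overlapped, and its counted bases were assembled to 61.2% to 62.5% in WT replicate 3 and Gde2KO replicates 2 and 3 and fully in the others.

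Excitatory scaffold and adhesion genes had 10 of 24 above 0 and 14 below. Pick1, which encodes a PDZ protein that binds GluA2 and drives its internalization, had the smallest p of all partners. It stood at 6.99, 10.1 and 9.05 FPKM in the WT libraries and 2.32, 2.29 and 3.30 in Gde2KO, with no overlap (fold 0.310, 0.220 to 0.435, limma adjusted p = 0.11). Its level rests on 933 counted bases, of which 93.9% to 100% were assembled in WT and 19.4% to 28.8% in Gde2KO. Its 1248 coding bases outnumber the counted ones, so the 2 measures rest partly on different bases. Over its coding bases it had 7.67, 10.1 and 12.8 FPKM in the WT libraries and 10.5, 9.73 and 9.44 in Gde2KO, with overlapping groups. These coding bases were assembled to 97.4% to 100% in WT and 81.7% to 82.5% in Gde2KO. As fragments per gene Pick1 had 20.9, 22.1 and 24.4 in WT and 17.7, 16.4 and 16.9 in Gde2KO, lower without overlap. Of the inhibitory scaffold genes, 1 of 6 lay above 0, Gphn, which encodes gephyrin, at a fold of 1.15 (0.955 to 1.38, limma adjusted p = 0.882).

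Glul, the glutamine synthetase of astrocytes, had the smallest p among glutamate synthesis and transport genes, 2 of 9 above 0. It stood at 651, 766 and 810.3 FPKM in the WT libraries and 407, 426 and 682 in Gde2KO, and WT replicate 1 overlapped Gde2KO replicate 3 (fold 0.664, limma adjusted p = 0.882). As fragments per gene its values were 1858 to 2188 in WT and 1860 to 2159 in Gde2KO. Among GABA and glycine synthesis and transport genes, 5 of 10 above 0, the smallest p was that of Slc6a13, a GABA transporter of the meninges, at 3.21, 2.50 and 3.23 FPKM in the WT libraries and 1.19, 2.15 and 2.12 in Gde2KO (fold 0.609, 0.397 to 0.934, adjusted p = 0.882 by limma). Meningeal markers summed to 84.0 to 108 FPKM in the WT libraries and to 48.5, 94.8 and 97.6 in Gde2KO, and their part in this value was not tested.

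The kainate and delta partner list had 3 of 5 above 0, with Neto2, an auxiliary kainate subunit, at a fold of 1.10 (0.976 to 1.23, limma adjusted p = 0.882). Of the GABA-B auxiliary genes, Kctd12 stood at a fold of 1.15 (0.833 to 1.58) and 1 of 2 tested lay above 0. Chloride transport had 2 of 3 above 0. Slc12a5, the neuronal exporter KCC2 that keeps GABA and glycine inhibitory, stood at 98.3 ± 3.07 FPKM in the WT libraries and 94.2 ± 5.88 in Gde2KO libraries (SD, n = 3 each), and Slc12a2, the importer NKCC1, at 33.3 ± 3.53 and 37.2 ± 3.89, with adjusted p of 0.884 and 0.882 by limma.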

How the data were processed

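Each deposited file is 1 library's transcript assembly. Per the submitters' processing notes, reads were aligned to mm10 with TopHat2 2.1.1 and assembled with Cufflinks 2.2.1, and FastQC and Cuffdiff 2.2.1 are also named. The FPKM values per transcript were made by the authors and carry no counts, so depth is unknown in absolute terms. An estimate of relative depth ran from 0.910 to 1.14. Library preparation beyond poly-A selection, and its strandedness, are not given in the sources used here.

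Transcripts were matched to GENCODE vM21 by exon overlap on the same strand. Those under 200 bases were left out, and those without strand counted only where no gene lies opposite. The level of a gene is the summed FPKM of the transcripts over each base, as a mean of the exonic bases of that gene alone that were assembled in at least 3 libraries, and divided by median-of-ratios factors of 0.983 to 1.03. An exact 0 can be a failed assembly. limma 3.58.1 in R 4.3.3 was fitted on log2(FPKM + 0.1) with trend and robust moderation for 12890 genes of at least 200 counted bases and a mean of 1 FPKM and p-values, from both tails, were adjusted by Benjamini and Hochberg (threshold 0.05). Folds on this scale understate changes of low genes. Shares of alternative forms were compared by exact two-sided permutation. The fit was tested on simulated data.

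Alternatives were another way of summing transcripts, another scaling, pseudocount or filter, a replicate block, and leaving out each library. Named in full were the highest gene of each class, genes with an unadjusted p under 0.05, genes without overlap and a log2 difference of at least 0.2, genes at 0 in some libraries, and in each partner list the gene of smallest p. A few members are not reported here, in the text or in figures. Other genes with values by library were chosen after their values were seen. The members, lists and tests were chosen with earlier results of these data known. Same-numbered WT and Gde2KO libraries had correlations of -0.0664 to 0.0344 in their deviations. All 6 library descriptions carry 1 flow cell code, which leaves no batch to compare.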

Additional observations from a re-analysis of the deposited data

How the results depend on the processing

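Over 20 alternatives, 0 receptor genes and 0 partner genes passed, and the median log2 difference of the receptor genes stayed between -0.09 and -0.01. The count over all genes was 15, and it was 8 with fragments per gene, 4 on bases assembled in all 6 libraries, 4 with a pseudocount of 0.01, 1 with a mean FPKM of at least 5, 4 with values of 0 as missing, and 10 to 26 with 1 library left out (10 without WT replicate 1, 26 without WT replicate 2, 25 without Gde2KO replicate 2 and 25 without Gde2KO replicate 3). With a replicate block the count was 2. The replicate numbers share only a number, and the block moved no receptor or partner call. The unadjusted p of Grm5 was then 0.0574.

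Directions of named receptor genes turned under these alternatives, none of them called. With plain sums the log2 difference was -0.04 for Gabbr1, -0.0019 for Gabra2, -0.04 for Grik5, 0.50 for Grin1 and 0.14 for Grm4. With fragments per gene it was -0.07 for Gabbr1 and -0.03 for Grik5, and on bases assembled in all 6 libraries -0.10 for Grik5 and 0.05 for Grm5. It was -0.02 for Gabbr1 without scaling and 0.08 for Gabra5 with values of 0 as missing. With 1 library left out, the range was -0.12 to 0.09 for Gabbr1, -0.01 to 0.11 for Gabra2, -3.64 to 0.08 for Gabra5, -0.09 to 0.29 for Glra1, -0.06 to 0.10 for Grik5 and -0.09 to 0.05 for Grin1. Of the shares, Gabbr1 form b moved to 3.06 points and Gria1 flip to 2.61 with the largest transcript. With 1 library left out, the range in points was -6.44 to 25.47 for the Grin1 63-base exon, -4.23 to 7.14 for Gria2 flip, -6.43 to 5.89 for the Gabra4 68-base exon, and -8.13 to 6.48 for Gabbr1 form b. The causes were not tested. With 1 library left out, Gria3 flip ran from 45.3 to 64.6 points and Gria1 flip from 5.84 to 9.56, and with transcripts spliced into the exon Gria3 flip was at 43.9.

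With 3 libraries a group and FPKM alone, differences within the intervals above were not detectable. Levels rest on each library's own assembly, and counted bases without a model enter as 0.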
